A study of Mus musculus with 12 samples.

Results

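Peaks of N6-methyladenosine (m6A) whose assigned transcript is annotated as a processed transcript were examined in mouse lung. A peak belonged to this class when the deposited list gives its assigned transcript the Ensembl biotype processed_transcript, whatever the region in which it lies. The list of the ovalbumin (OVA) group held 3930 such peaks among 27292, or 14.4% (95% Wilson interval 14% to 14.8%), and the list of the phosphate-buffered saline (PBS) group held 3771 among 26102, or 14.4% (14% to 14.9%). Intervals cover counting error only. The animals were female BALB/c mice of 6 to 8 weeks, and lung RNA of 3 mice per group was sequenced, each giving a library of fragments pulled down with an m6A antibody (IP) and an input library without the pull-down. OVA mice were sensitized by intraperitoneal injection of OVA with alum on days 0 and 7 and breathed aerosol of 3% OVA for 30 min a day from day 14 to day 20. PBS mice received PBS at both stages, and all lungs were taken on day 21. By the paper's account lungs were collected after airway function had been tested under anaesthesia with rising doses of nebulized methacholine. Whether every sequenced mouse went through that test is not stated. The authors deposited 1 peak list per group, so no value of a single mouse is given and no difference between the lists has a replicate check.

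A processed transcript, in the Ensembl and HAVANA annotation, is a spliced RNA for which no open reading frame is annotated. Many belong to protein-coding genes, where they are alternative or partial isoforms beside the coding ones, and others are the products of long non-coding genes. The study names an Ensembl release for the genome used in alignment but not for the biotypes of the lists, whose names include some of older releases, and another release could place some peaks in other classes. m6A is placed on adenosines, within a short sequence context centred on the letters AC, by a nuclear methyltransferase complex built on METTL3 and METTL14. It is removed by demethylases such as ALKBH5 and bound by YTH-domain proteins, which act on splicing, export and decay. In mRNA the mark is known to gather near the stop codon and in the 3' untranslated region (UTR).

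The biotype describes the transcript with the nearest start and not the RNA on which a peak was measured, and most of these peaks lay on coding genes. RefSeq lists the assigned gene as protein-coding for 3672 OVA peaks, or 93.4% (92.6% to 94.2%), and for 3505 PBS peaks, or 92.9% (92.1% to 93.7%). Genes that RefSeq lists as long non-coding RNAs took 118 OVA and 107 PBS peaks, which is 3.00% and 2.84%. The assigned gene could not be matched to RefSeq by symbol or synonym for 85 and 96 peaks. Counted by gene, 2199 of the 2366 OVA genes and 2127 of the 2290 PBS genes were protein-coding in RefSeq, and 77 and 68 were long non-coding. These shares describe the assigned gene and not the RNA under a peak, and whether that RNA was a coding isoform was not tested. The peaks are called processed-transcript peaks here only for the transcript assigned to them.

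Most of the peaks were annotated to a UTR. Of the OVA peaks, 2373 were annotated to a 3' UTR, or 60.4% (58.8% to 61.9%), 1313 to an exon, or 33.4% (32.0% to 34.9%), and 244 to a 5' UTR, or 6.21% (5.50% to 7.01%). In the PBS list 2264 peaks were in a 3' UTR (60.0%), 1278 in an exon (33.9%) and 229 in a 5' UTR (6.07%). A transcript without a reading frame has no UTR, so a UTR annotation comes from another transcript that covers the peak. Among all other OVA peaks the 3' UTR share was 51.4% (50.7% to 52.0%) and the 5' UTR share 12.5% (12.1% to 13.0%). Peaks assigned to protein-coding transcripts had 20.4% in the 5' UTR, while those assigned to retained introns, also isoforms without a complete reading frame, had 61.1% in the 3' UTR and 6.02% in the 5' UTR. The intervals of the processed-transcript and retained-intron shares overlapped for both regions. When RefSeq listed the gene as a long non-coding RNA, 100 of 118 OVA peaks, or 84.7% (77.2% to 90.1%), and 89 of 107 PBS peaks, or 83.2% (75% to 89.1%), were annotated to an exon.

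Exon annotations name the transcript they refer to. The named transcript was the assigned one for 203 of the 1313 OVA exon peaks, or 15.5% (13.6% to 17.5%), and for 198 of the 1278 PBS exon peaks, or 15.5% (13.6% to 17.6%). For all other OVA exon peaks the share was 33.1% (32.1% to 34.1%). It was 14.1% (OVA) and 13.6% (PBS) for exon peaks of retained introns. For those of nonsense-mediated decay transcripts it was 4.32% and 4.11%. The gene named was nevertheless the assigned gene for 1236 OVA and 1188 PBS exon peaks of the class, or 94.1% and 93.0%. All other exon peaks named it in 82.7% and 82.0% of cases, and those of retained introns in 96.9% and 96.4%. The exon annotation thus usually named the assigned gene but another transcript of it. A peak can lie on several transcripts of a gene, so this does not place it off the assigned one.

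The peak span reached the span of its processed transcript in 2030 OVA cases, or 51.7% (50.1% to 53.2%), and in 1922 PBS cases, or 51.0% (49.4% to 52.6%). All other peaks reached their transcript in 60.0% and 58.9% of cases, peaks of protein-coding transcripts in 67.7% and 67.4%, and peaks of retained introns in 51.1% and 49.1%. The share was 43.7% for processed-transcript peaks in a 3' UTR, 59.4% in an exon and 87.7% in a 5' UTR of the OVA list. Peaks outside lay a median of 2909 bp (OVA) and 2781 bp (PBS) from the transcript. Measured to the transcript start, with upstream distances counted as negative, the median distance was 2333 bp (OVA) and 2346 bp (PBS). For all other peaks it was 837.5 and 860 bp. Processed-transcript peaks in a 3' UTR had medians of 4268 and 4323 bp. The start lay inside the peak for 510 OVA and 481 PBS peaks, and 627 and 625 peaks lay upstream of it. Many of the peaks therefore do not touch the transcript that gives them their class.

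A further column holds the gene on which the authors' caller found the peak. This gene differed from the assigned one for 301 OVA peaks, or 7.66% (6.87% to 8.53%), and for 310 PBS peaks, or 8.22% (7.39% to 9.14%). Among all other peaks it differed for 25.0% and 25.3%, and among retained-intron peaks for 4.13% and 4.11%. Of the 301 OVA peaks, 215 were in a 3' UTR, 76 in an exon and 10 in a 5' UTR. The strongest case was a peak at chr4:95049659-95050494, annotated to a 3' UTR and assigned to Gm12703, at a distance of -2124 bp from its start, where a minus sign means upstream. It was called on Jun, an AP-1 transcription factor gene, with a fold enrichment of IP over input of 97.4 (OVA) and 63.3 (PBS) and the same start and end in both. Further cases, picked after their values were seen, include a 3' UTR peak called on Flcn, the folliculin gene, and assigned to Pld6, with fold enrichments of 49.4 and 36.8. A peak called on Spef2, a sperm flagellar gene, was assigned to Il7r, the interleukin 7 receptor gene, although its distance from that start is -69475 bp. It had a value of 54.9 against 15.3 at the overlapping PBS peak. A lookup of the assigned symbol alone would miss the gene on which these peaks were called.

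Processed-transcript peaks were not spread over the chromosomes as other peaks were. On chromosome 4 they made up 462 of 1553 OVA peaks, or 29.7% (27.5% to 32.1%), on chromosome 2, 507 of 2038, or 24.9% (23.0% to 26.8%), and on chromosome 11, 464 of 1995, or 23.3% (21.5% to 25.2%). The PBS shares on these chromosomes were 30.3%, 24.9% and 22.7%. Over all other chromosomes together the share was 11.5% (11.1% to 11.9%) among OVA peaks and 11.6% (11.1% to 12.0%) for PBS peaks. The lowest shares among chromosomes 1 to 19 and X were those of chromosome 12, with 7.61% (OVA) and 7.95% (PBS), and chromosome 7, with 8.17% and 8.49%. Chromosomes 2, 4 and 11 held 36.5% of the processed-transcript peaks in the OVA list and 17.8% of all other peaks. The shares were close in both groups, and how many processed transcripts the annotation holds on each chromosome was not tested. No processed-transcript peak lay on chromosome Y or the mitochondrial genome.

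Some peaks were listed more than 1 time. Within the OVA list 262 processed-transcript peaks shared exonic bases with another processed-transcript peak, at 125 positions, and counting each position singly left 3793. In the PBS list 264 peaks at 125 positions did so, leaving 3632. The peaks of such a position had been called on more than 1 gene identifier at 82 OVA and 81 PBS positions. Any overlapping peak of its own list, whatever the biotype, was found for 10.5% of the OVA and 10.8% of the PBS processed-transcript peaks, against 11.5% and 11.2% of all other peaks.

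Most genes carried few such peaks. In the OVA list 1408 of the 2366 assigned genes had 1 processed-transcript peak, 596 had 2, 214 had 3 and 148 had 4 or more. In the PBS list 1393 of 2290 had 1, 575 had 2, 181 had 3 and 141 had 4 or more. No peak of any other biotype was assigned to 1502 of the OVA genes and 1467 of the PBS genes, so for these the processed-transcript class holds every assigned peak of the gene. A peak assigned to a protein-coding transcript of the same gene was present for 621 and 600.

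Among the genes with the highest number of peaks were Map1a, with 22 over both lists, and Ahnak, Snrnp48, Spen and Zc3h11a, with 18 each. Map1a, which encodes a microtubule-associated protein of neurons, had 10 OVA and 12 PBS peaks, of which 7 and 10 were annotated to an exon. They ran from chr2:121298975 to 121310802 in the OVA list, and the exon peaks named exon 5 of 7. Fold enrichments ranged from 3.46 to 19.4 in the OVA list and from 2.00 to 8.34 in the PBS list. A single OVA peak at chr2:121300665-121302254, with a fold enrichment of 19.4, overlapped 3 PBS peaks, with 8.34, 4.36 and 3.85.

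Ahnak encodes a very large scaffold protein read from a long last exon. Its 6 OVA and 12 PBS peaks had the same outer limits, chr19:9001737-9018827. One OVA peak of 9386 bp, chr19:9006144-9015529, had a fold enrichment of 17.3, and the PBS list held 6 separate peaks inside it, with fold enrichments from 1.57 to 13.7. The outer limits of the Ahnak stretch were thus the same, while the bases covered within it and the number of peaks were not. The last Ahnak peak, in the 3' UTR at chr19:9016067-9018827, was identical in position in both lists, with fold enrichments of 8.60 and 8.63.

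Spen, a transcriptional repressor that acts in X inactivation, had 8 OVA and 10 PBS peaks on chromosome 4. The highest fold enrichments were 38.0 (OVA) and 33.2 (PBS), both in the 3' UTR. Its peak over the 5' UTR, chr4:141516902-141538297 in the OVA list, spanned 3 exonic blocks and had a fold enrichment of 17.2, against 16.3 for the PBS peak.

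Snrnp48 and Zc3h11a show how the count by assigned gene can mislead. Snrnp48 encodes a protein of the minor spliceosome, yet 8 of its 10 OVA peaks and 7 of its 8 PBS peaks were called on Dsp, the neighbouring gene of desmoplakin, and lay upstream of the Snrnp48 transcript start in exons 23 and 24 of 24. The strongest of them, chr13:38195817-38196267, had a fold enrichment of 23.9 (OVA) and 22.3 (PBS). Zc3h11a, whose product takes part in mRNA export, had 9 peaks in each list at 3 positions, because each position was listed for 3 gene identifiers. Fold enrichments there ranged from 5.71 to 12.4 in the OVA list and from 5.13 to 14.8 in the PBS list.

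Fold enrichment is the authors' own ratio of IP over input signal and was ranked only within its list, a percentile being the rank among all peaks of that list, ties averaged, in percent of their number. Its OVA median was 5.40, between quartiles of 2.75 and 11, and its PBS median 5.26, between quartiles of 2.79 and 10.6. All other peaks had medians of 5.64 and 5.48, peaks of protein-coding transcripts 5.99 and 5.82, and peaks of retained introns 4.48 and 4.50. Processed-transcript peaks therefore stood between these classes. By region the OVA medians were 6.08 for 3' UTR peaks, 4.41 for exon peaks and 5.16 for 5' UTR peaks, with PBS medians of 5.72, 4.45 and 5.93. Peaks on RefSeq long non-coding genes had medians of 5.67 and 5.92, and those on RefSeq protein-coding genes 5.31 and 5.20. Peaks that reached their processed transcript had medians of 5.66 and 5.60, and those outside it 5.01 in both lists. All other peaks had 6.08 and 5.97 when they reached their transcript, and 5.01 and 4.83 outside it. A false discovery rate (FDR), the caller's p value corrected for the number of tests, under 0.05 was reached by 3878 OVA and 3705 PBS peaks, or 98.7% and 98.2%. Nearly the same shares of all other peaks, 98.0% and 97.8%, reached it.

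The peaks were of similar size in both lists. From start to end, introns included, the median width was 448 bp (OVA) and 392 bp (PBS), against 390 and 362 bp for all other peaks. Summed over exonic blocks the medians were 333 and 332 bp. More than 1 exonic block was present in 1051 OVA peaks, or 26.7% (25.4% to 28.1%), and 924 PBS peaks, or 24.5% (23.2% to 25.9%).

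Within the processed-transcript class the highest fold enrichment of each list was on Zbed4, which encodes a zinc-finger protein with BED domains. The OVA peak spanned chr15:88779409-88783590, 4182 bp of the 3' UTR annotation, and had a fold enrichment of 456. The PBS list held separate peaks within this span, of which chr15:88783022-88783202, annotated to exon 3 of 3, had a fold enrichment of 88.3. The PBS peak with the largest overlap, chr15:88780992-88782157, had 29.6. Tlr12, a Toll-like receptor gene, followed among the OVA peaks of the class with a fold enrichment of 111 at chr4:128615502-128615862, against 13.2 for its PBS counterpart. Fam98b, a component of the tRNA ligase complex, had 100 (OVA) and 53.8 (PBS). Hic1, a transcriptional repressor gene, had 82.1 and 13.2 in exon 2 of 2. These values are shown side by side and their ratio was not tested.

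In the PBS list the peaks next to Zbed4 were on Bcl11a, a transcription factor gene known for its role in globin switching, with a fold enrichment of 85.9 at chr11:24164104-24165333. The OVA counterpart had 19.4, at percentile 91.3 of its list. Fam171a2 had 74.5 in the PBS list and 42.6 in the OVA list. Cys1, which encodes the cilium protein cystin, had 72.8 and 31.1, and Scaf8, a factor that binds RNA polymerase II, had 72.1 and 24.5. The Scaf8 peak was the only one among them in a 5' UTR, and its position, chr17:3114971-3115211, was the same in both lists. The counterparts of all these peaks ranked at or above percentile 82.2 of their own list.

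Peaks of the processed-transcript class were then sought in the other list by the overlap of exonic blocks, with at least 1 bp and any biotype allowed. No overlapping PBS peak was found for 661 OVA peaks, or 16.8% (15.7% to 18%), where 19.4% of all OVA peaks had none. No overlapping OVA peak was found for 457 PBS peaks, or 12.1% (11.1% to 13.2%), where 14.5% of all PBS peaks had none. For all peaks outside the class the shares were 19.8% (19.3% to 20.3%) and 14.8% (14.4% to 15.3%), above those of the class in both lists and with intervals apart from its own. Peaks assigned to protein-coding transcripts had 18.3% (17.6% to 19.1%) and 14.4% (13.8% to 15.1%). Their interval overlapped that of the class in the OVA list but not in the PBS list. Retained-intron peaks had 18.5% and 12.2%, and peaks of nonsense-mediated decay transcripts had 16.8% and 12.8%, close to the class. In exons the share without a counterpart was 22.0% (19.9% to 24.3%) for OVA peaks and 15.9% (14% to 18%) for PBS peaks. In the 3' UTR it was 14% (12.7% to 15.5%) and 9.58% (8.44% to 10.9%), and in the 5' UTR 16.0% (11.9% to 21.1%) and 16.2% (12.0% to 21.5%). The shares by region were not computed for all other peaks. On RefSeq long non-coding genes the share was 26.3% (19.2% to 34.9%) and 23.4% (16.4% to 32.2%). Outside the class, peaks assigned to long intergenic non-coding RNAs had 27.6% and 23.6%, and those assigned to antisense transcripts 24.8% and 17.3%.

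Peaks without a counterpart were short and weak. Their median fold enrichment was 2.49 (OVA) and 2.98 (PBS), against 6.32 and 5.69 for those with a counterpart. Their exonic blocks summed to a median of 122 bp in both lists, against 420 and 390 bp. Outside the class the median fold enrichment was 2.93 and 3.45 without a counterpart, and 6.53 and 5.92 with one. The same medians of 122 bp were seen for the other peaks without a counterpart. A further 78 OVA and 64 PBS peaks overlapped only peaks of other biotypes, and 73 and 60 of them were called on the same gene as the peak they overlapped most. For most of these the class differed between the lists although the called gene did not. By gene, 2071 assigned genes had a processed-transcript peak in both lists, 295 in the OVA list alone, or 12.5% of its genes, and 219 in the PBS list alone, or 9.56%. By the peaks outside the class, 13.7% and 9.96% of assigned genes were in a single list. When any peak of any biotype, by assigned or called gene, was counted in the other list, 148 and 94 were left, or 6.26% and 4.10%, against 11% and 7.85% of the genes assigned by other peaks.

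The OVA peak with the lowest p among those without a counterpart was on Clca1, a secreted protein of mucous airway cells. It lay at chr3:145004146-145004866 in the 3' UTR annotation, with a fold enrichment of 3.55, at percentile 32.9 of its list, and a log10 p of -999, the base-10 logarithm of the caller's p value. No peak of any biotype was listed for Clca1 in the PBS group. Next came Slc7a11, the cystine and glutamate exchanger, with a fold enrichment of 6.13 at chr3:50369973-50370393. Slc7a11 had another OVA peak and a PBS peak elsewhere, with fold enrichments of 12.3 and 5.76. Slc2a6, a glucose transporter gene, had 7.93 at chr2:27021362-27021868 as its only peak. Btbd17 had a fold enrichment of 24.8 at chr11:114791216-114791604, also its only peak. Clspn, which encodes the checkpoint protein claspin, had 6.51 at chr4:126593064-126593544, the highest of its 5 OVA peaks, beside 3 PBS peaks at other places of the gene, with 8.88 to 20.2.

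Among PBS peaks without a counterpart the lowest p values belonged mostly to weakly enriched peaks. Fhl1, a LIM-domain gene of muscle, had a fold enrichment of 1.94 at chrX:56792956-56793226, with a log10 p of -706. Actb, the cytoskeletal actin gene, had 1.63 at chr5:142903393-142903654, and Prdx6, a peroxiredoxin that also acts in surfactant metabolism, had 1.52 at chr1:161241364-161241633. Fmo2, the flavin-containing monooxygenase of lung, had 1.56 at chr1:162875516-162875667. These 4 stood at or below percentile 9.62 of their list. Nr1d1, which encodes a repressor of the circadian clock, differed from them with 5.94 at chr11:98767931-98768171. No OVA peak was listed for Fhl1, Prdx6 and Nr1d1, while Actb had 1 and Fmo2 had 2.

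A call needs enough RNA in the input, and the lists give no input level. A change in methylation, in RNA per cell and in the number of cells of a type can therefore not be told apart for these peaks from the lists alone, and RNA levels measured by the study were not used here. Cell type markers were looked up over all biotypes as a description of the tissue. Of the alveolar type 2 markers 5 of 6 had a peak in each list, as did 5 of 5 alveolar type 1 and 5 of 5 endothelial markers, 4 of 5 ciliated cell markers and 1 of 5 macrophage markers. Among all 21900 RefSeq protein-coding genes, 12101 (OVA) and 11794 (PBS) had a peak, or 55.3% and 53.9%. T cell markers with a peak numbered 4 of 4 (OVA) and 2 of 4 (PBS), and club and goblet markers 4 of 5 and 3 of 5, the difference being Clca1. B and plasma cell markers numbered 3 of 5 and 2 of 5. Of 3 heart muscle markers none had an OVA peak, while Myh6 and Tnnt2 had PBS peaks, with fold enrichments of up to 3.30 and 4.49. Myl7 had a peak in neither list. Their part in peaks such as that of Fhl1 was not tested. Of 3 eosinophil markers 1 had a peak in each list, and of 4 fibroblast and smooth muscle markers 3 did. The lists do not say whether RNA of the markers without a peak was present.

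Where an OVA processed-transcript peak overlapped a PBS processed-transcript peak and both had an FDR under 0.05, the percentile rank of fold enrichment was compared between the lists, each rank taken within its own list. Over 3172 pairs the median absolute shift was 7.08 points, with quartiles of 3.03 and 14.4. For 18487 pairs of other peaks it was 7.80 points, with quartiles of 3.28 and 15.7. In those pairs the PBS peak could be of any biotype, so the pairing rule differed from that of the class. Shifts of 25 points or more were seen in 327 pairs, or 10.3% (9.30% to 11.4%), and in 12.2% (11.8% to 12.7%) of the pairs of other peaks.

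Each OVA peak was paired with the PBS peak that it overlaps most, and pairs built from the PBS side can shift further. Among the pairs built from OVA peaks the largest rise in rank was that of Cstad, from percentile 23.6 to 96.9. Its 3' UTR peak at chr2:30608463-30608793 had a fold enrichment of 28.1 (OVA) and 2.77 (PBS). Gper1, a G protein-coupled estrogen receptor gene, moved from percentile 14.9 to 85.3 in its 5' UTR, between an OVA peak at chr5:139425711-139425801 and a PBS peak at chr5:139425770-139426070 that share only their ends. The long non-coding 1700123M08Rik moved from 30.9 to 95.4, and Brwd1, a bromodomain gene, from 34.6 to 93.4 in exon 40 of 42. Paired spans were of similar size for Cstad, but for 1700123M08Rik the PBS peak spanned chr4:11981656-11994280 and the OVA peak only chr4:11993889-11994190.

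The largest falls were those of Zfp729a, from percentile 96.1 to 14.3, Zscan20, from 90.7 to 9.47, Popdc2, from 95.2 to 17.4, and Ptgfr, from 98.5 to 23.7. Zfp729a and Zscan20 encode zinc-finger proteins, Popdc2 a membrane protein of heart muscle and Ptgfr the receptor of prostaglandin F. In all 4 a short OVA peak fell inside a longer PBS peak. For Ptgfr the OVA peak of 62 bp at chr3:151801179-151801240 had a fold enrichment of 2.82 and the PBS peak at chr3:151801119-151801900 had 31.8. A rank taken from such a pair compares different lengths of RNA. A further OVA peak of Ptgfr, with a fold enrichment of 15.9, lies inside the same PBS peak and overlaps it over more bases.

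Fixed groups of genes were then searched for processed-transcript peaks, which 10% (OVA) and 9.68% (PBS) of all RefSeq protein-coding genes had, while 55.3% and 53.9% had a peak of some biotype. Whether any group departs from these shares was not tested. Of 21 writers, erasers and readers of m6A, 4 (OVA) and 3 (PBS) had such a peak, while 17 and 15 had a peak of some biotype. Zc3h13, a scaffold of the writer complex, had 6 OVA and 5 PBS peaks. Its strongest OVA peak, chr14:75324600-75329697 in exon 11 of 19, had a fold enrichment of 18.5 and its PBS counterpart 13.5. The 3' UTR peak chr14:75339466-75344426 was identical in both lists, with 12.0 and 8.82.

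Ythdc1, the nuclear m6A reader, had a 3' UTR peak at chr5:86826715-86829655 in both lists, with fold enrichments of 16.5 and 16.1. Mettl16, a methyltransferase that acts on U6 RNA and on the Mat2a transcript, had 6.76 and 7.79 in its 3' UTR. Alkbh5, the demethylase, had an OVA peak of 151 bp at chr11:60536470-60536620 in exon 1 of 4, with a fold enrichment of 21. The PBS peak there began at the same base, ran to 60538020, had a fold enrichment of 8.14 and was assigned to a protein-coding transcript. The Alkbh5 site was thus listed in both groups and its class differed between them.

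Splicing factors of the SR family and related proteins were represented by Srsf10, Son and Srrm2, 3 of 17 genes, with 6 peaks in each list, while 14 (OVA) and 12 (PBS) had a peak of some biotype. The 3' UTR peak of Son at chr16:91662492-91662973 had a fold enrichment of 14.6 (OVA) and 13.1 (PBS). Srrm2, a core protein of nuclear speckles, had a peak over chr17:23816775-23818572 in exon 11 of 15, with 6.54 and 6.22, and a log10 p of -2060 in the OVA list. Its neighbour at chr17:23816506-23816716 had 1.43 and 1.34, close to the bottom of both lists. Srsf10 had fold enrichments of 5.55 and 4.64 in the 3' UTR.

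Among 45 long non-coding and snoRNA host genes, Tug1 and Snhg3 had processed-transcript peaks, and 21 (OVA) and 18 (PBS) genes had a peak of some biotype. Of all 12731 RefSeq long non-coding genes, 0.605% and 0.534% had a processed-transcript peak and 7.45% and 7.02% a peak of some biotype. Tug1, a long non-coding RNA, had a peak at chr11:3646521-3647540 in exon 1 of 2, with a fold enrichment of 32.4 among OVA peaks, at percentile 98.1, and 28.4 among PBS peaks, at percentile 97.7. A shorter peak inside it, chr11:3647178-3647325, was called on Gm27640, with 4.47 and 4.12. The Snhg3 peak had a distance of -4507 bp from the start and was called on Phactr4, with 3.80 and 3.48. It therefore lies outside the Snhg3 transcript.

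Of 10 factors of nonsense-mediated decay, Upf2, Smg1 and Smg6 had processed-transcript peaks, and 10 (OVA) and 9 (PBS) had a peak of some biotype. Smg1, the kinase that phosphorylates UPF1, had a 3' UTR peak at chr7:118134425-118136687 with a fold enrichment of 12.8, and 11.8 in the PBS list. Upf2 had 8.78 and 9.55 in its 3' UTR, and a further PBS peak in exon 16 of 22 had 1.81. Smg6 had 1.44 and 1.43, at percentiles 1.63 and 1.5.

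Genes of the type 2 allergic response, 39 in the fixed list, had a peak of some biotype in 23 (OVA) and 18 (PBS) cases. The shares over all RefSeq protein-coding genes were 55.3% and 53.9%, and the difference between the lists was not tested. Processed-transcript peaks were found on Clca1, described above, and on Gata3, the transcription factor of T helper type 2 cells and group 2 innate lymphoid cells. Gata3 had 3 OVA and 3 PBS processed-transcript peaks, all with a counterpart. The peak at chr2:9857795-9858573 in the 3' UTR had a fold enrichment of 15.6 among OVA peaks, at percentile 85.6, and its counterpart had 18.1, at percentile 91.1. A wide peak over exon 3 of 6, chr2:9863192-9874574, had 4.88 and 4.38. The third, chr2:9857436-9857616, had 5.26 and 2.26.

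Among the lung cell markers, Rtkn2 of alveolar type 1 cells had 3 peaks in each list. The main one, starting at chr10:68041447 in the 3' UTR annotation, had fold enrichments of 7.17 and 8.10, and each list held 1 further Rtkn2 peak with no counterpart, at 2.44 and 1.64. Tek, the endothelial receptor of angiopoietins, had a peak at chr4:94849767-94849917 in exon 12 of 22, with 1.52 and 1.24.

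Peaks assigned to long non-coding genes in the RefSeq sense reached their processed transcript in 83 of 118 OVA cases, or 70.3% (61.6% to 77.8%), and 77 of 107 PBS cases, or 72.0% (62.8% to 79.6%). Others lay outside it, such as a PBS peak with a fold enrichment of 21 that was assigned to B230206L02Rik and called on Spag9. The highest fold enrichments of this set, picked after their values were seen, were on A430108G06Rik, with 76.0 (OVA) and 11.9 (PBS), and on Eldr, with 52.9 and 12.8. Unc45bos had 40 and 6.49. The A430108G06Rik peak lay at chr11:53565041-53565602 in exon 2 of 2. In the PBS list Tug1 was first, followed by Gm15927, with 22.2 at chr7:3643692-3644141 in the PBS list and 5.20 at an antisense-assigned OVA peak.

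For a few of these genes, chosen after their values were seen, the peak reached the RefSeq window of 250 bases before to 50 bases after the gene's start, which is the only genomic sequence given here. The bases shared by window and peak are shown 5' to 3' on the transcript strand (RefSeq, GRCm38.p6), to let the letters under a peak be read, with the 4-letter core GGAC, or its forms beginning with GA (GAAC), with AG (AGAC) or with AA (AAAC), each holding the letters AC as m6A sites do, in capitals. They were counted on both strands of each piece. Peaks were required to have an FDR under 0.05, an exon annotation on their own gene and at least 40 bases in the window. The 2610307P16Rik piece is chr13:28885373-28885590 on the minus strand, under an exon 1 peak with a fold enrichment of 19 (OVA) and 9.62 (PBS). The Gm15927 piece is chr7:3644296-3644410 on the minus strand, under a PBS peak with 7.16. The 5930403N24Rik piece is chr10:37139491-37139581 on the plus strand, under an OVA peak with 10.7. The 1810019D21Rik piece is chr8:106135399-106135449 on the plus strand, with 3.18 and 3.45, the 4933439C10Rik piece is chr11:59505661-59505702 on the plus strand, under a PBS peak with 7.68, and the 2810410L24Rik piece is chr11:120189807-120189852 on the minus strand, with 4.27 and 5.57.
2610307P16Rik: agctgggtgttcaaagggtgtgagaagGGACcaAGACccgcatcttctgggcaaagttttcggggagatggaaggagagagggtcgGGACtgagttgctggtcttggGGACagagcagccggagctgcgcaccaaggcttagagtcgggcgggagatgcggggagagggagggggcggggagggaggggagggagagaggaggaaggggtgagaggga
Gm15927: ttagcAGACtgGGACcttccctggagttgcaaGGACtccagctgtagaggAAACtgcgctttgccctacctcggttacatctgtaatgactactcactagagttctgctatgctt
5930403N24Rik: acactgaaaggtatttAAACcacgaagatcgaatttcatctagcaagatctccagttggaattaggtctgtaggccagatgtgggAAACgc
1810019D21Rik: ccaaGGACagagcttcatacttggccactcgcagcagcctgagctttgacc
4933439C10Rik: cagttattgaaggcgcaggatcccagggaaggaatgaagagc
2810410L24Rik: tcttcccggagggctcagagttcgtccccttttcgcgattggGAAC

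The 2610307P16Rik piece of 218 bases held 4 cores, 3 of them GGAC, with 3 cores on the other strand. The PBS peak reaches further, to chr13:28885620, and its piece of 248 bases, not shown, held 5 cores, 4 of them GGAC. At least 1 core in the same positions was found in 94.2% of the 32851 RefSeq windows, and GGAC in 54.9%. Gm15927 held 4 cores, 2 of them GGAC, in 115 bases, where 77.8% of windows held a core and 35.5% GGAC. In 1810019D21Rik the 51 bases held 1 GGAC, which 19.1% of windows held, and 2810410L24Rik and 5930403N24Rik held 1 and 2 cores without a GGAC, where 47.2% and 70.5% of windows held a core. On the other strand 2810410L24Rik held 2 cores, Gm15927 and 5930403N24Rik 1 each and 1810019D21Rik none. The 4933439C10Rik piece of 42 bases held no core on either strand, and 44.3% of windows held one there. A further 5930403N24Rik piece, not shown, held 1 core. Such short letters are common, and a match is a description of the sequence, not a methylated site.

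A microRNA hairpin lay wholly inside the exonic blocks of a processed-transcript peak in a single case in both lists. Mir8115, at chr5:122682597-122682715 on the plus strand, falls within the 3' UTR peak of P2rx7, the ATP-gated channel gene, at chr5:122681147-122682887 in the OVA list. This peak had a fold enrichment of 29.1 among OVA peaks, at percentile 97.2, and 14.7 among PBS peaks, at percentile 85.8. The mature microRNA is shown with its seed, bases 2 to 8, in capitals.
mmu-miR-8115: cCGCAAUAgcaacaagggcucu

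Fragments of the microRNA itself were not measured here, and the peak was called on P2rx7. The hairpin of Mir345, on chromosome 12, lay within the span of a PBS peak on Slc25a47 but shared only 6 bp with its exonic blocks.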

How the data were processed

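The series holds 12 libraries, IP and input of 3 mice per group. By the authors' account and processing notes, FASTP served for read cleaning, HISAT2 for mapping, exomePeak for peak calling and ChIPseeker for annotation. Tool versions are not given in the sources used here, nor is how replicates were combined. The deposited fold enrichment is the authors' ratio of IP over input, and the deposited scores are the log10 of a peak's p value and FDR. Other deposited columns give positions, widths and distances in bp. No read counts are given, so no interval accompanies a fold enrichment.

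Peaks were compared by the overlap of exonic blocks, with a minimum of 1 bp and strand not used. The counterpart of a processed-transcript peak was the peak with the largest overlap, of the same class where there was one. For other peaks it was the peak of any biotype with the largest overlap. Gene classes and sequences came from RefSeq (GRCm38.p6), matched by symbol or synonym. Of the OVA processed-transcript peaks called on RefSeq protein-coding genes, 97.3% overlapped that gene's RefSeq position, and 97.0% of the PBS peaks did, a check of the build. No comparison was tested, since each group has 1 list. Shares have 95% Wilson intervals.

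Named were, per list, the 5 peaks with the highest fold enrichment at an FDR under 0.05 and the 5 with the lowest p among peaks without a counterpart, and over both lists genes among those with the most peaks, the 4 largest rises and falls in rank, and genes of the fixed lists. Other names were chosen after their values were seen. The members and lists were chosen with earlier results of these data known. Python 3.11.15, numpy 2.4.6, scipy 1.17.1 and pandas 2.3.3 were used, and the overlap code was tested on simulated data.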

Additional observations from a re-analysis of the deposited data

How the results depend on the processing

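The overlap rule moved the share of processed-transcript peaks without a counterpart most. With 50% of both peaks required it was 27.6% (OVA) and 24.8% (PBS), and with identical start and end 89.1% and 88.6%. When only processed-transcript peaks of the other list counted, it was 18.8% and 13.8%. Identical positions match the same 429 peaks in both lists, so under that rule the longer OVA list has the higher share by its size alone. The other 42 of 48 alternatives stayed within the 95% interval of the reported share or median, or within 1.5 times the reported count. They comprised genomic spans, an FDR under 0.05, a fold enrichment of at least 2, peaks whose assigned gene is the called gene, and overlapping peaks counted singly, a choice made after the data were seen. Several of these settings kept nearly the same peaks and are a weak check. An FDR under 0.05, for example, kept 3878 of 3930 OVA and 3705 of 3771 PBS peaks. With a fold enrichment of at least 2 the list counts were 3462 and 3313. No paired analysis was possible because the lists hold no values of single mice, and for the same reason no mouse could be left out in turn. The count of m6A motif letters over all peaks, on 1 strand or both, was not run because no genome was given. The lists give no read counts, so the depth behind a peak, and with it whether a missing counterpart was detectable, is unknown.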

Other observations

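Zinc-finger genes were counted after the lists were seen. Assigned gene symbols starting with Zfp, Zscan, Zkscan or Zbtb accounted for 148 OVA processed-transcript peaks, or 3.77% (95% Wilson interval 3.21% to 4.41%), and 139 PBS peaks, or 3.69% (3.13% to 4.34%). Among all other peaks they accounted for 3.54% and 3.74%.

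A log10 p of minus infinity, a p of 0, was listed for 7 OVA and 4 PBS processed-transcript peaks. The OVA peaks, with their fold enrichments, were those called on Jun (97.4), Hipk2 (45.0), Sh3bp5l (44.2), Slc5a3 (40.9), Zfp41 (32.7), Adora2b (29.9) and Ercc4 (27.3). The PBS peaks were those called on Rtl10 (41.9), Phf20l1 (33.0), Ptgfr (31.8) and Gm8995 (28.7). Hipk2 encodes a nuclear kinase, Slc5a3 an inositol transporter, Ercc4 a nuclease of DNA repair and Adora2b an adenosine receptor. The Adora2b peak was assigned to Ttc19 in the OVA list, at a distance of -15228 bp, and to a protein-coding Adora2b transcript in the PBS list, where its fold enrichment was 38.8.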
